A study of Homo sapiens with 6 samples.

Results

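The genes described here are 10 components of the steroid receptor chaperone machinery and of the FKBP family: FKBP5, FKBP4, FKBP10, FKBP1A, FKBP2, HSP90AA1, HSP90AB1, PTGES3, STIP1 and PPID. They were chosen by name, and every probe set annotated to exactly 1 of them was taken, which gave 26 probe sets for 10 of the 19775 genes named alone by a probe set on the array. LNCaP is a line of human prostate cancer cells grown from a lymph node metastasis, and it responds to androgen. Before treatment all cultures spent 3 days in RPMI without phenol red, its serum depleted of steroids with charcoal and dextran. Treatment of 3 cultures was with dihydrotestosterone (DHT), the potent androgen made from testosterone, at 100 nM for 48 h. What the control group of 3 cultures received in its place is not given in the labels. The comparison is therefore of androgen against steroid deprivation in 1 cell line, at 1 dose and 1 time. The labels call the cultures biological replicates without saying whether they were grown on separate days, and p-values measure the spread between these samples only.

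A steroid receptor without hormone is held ready for binding by a complex built on the chaperone HSP90. STIP1 passes the receptor from HSP70 to HSP90, PTGES3 closes the mature complex, and the immunophilins FKBP4, FKBP5 and PPID compete for 1 docking place on HSP90 through tetratricopeptide repeats. FKBP5 is a textbook androgen target in prostate cells and itself a partner in steroid receptor complexes. FKBP1A is the small cytosolic protein to which the drugs FK506 and rapamycin bind, and FKBP2 and FKBP10 are prolyl isomerases of the endoplasmic reticulum, FKBP10 acting on collagen and tropoelastin.

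Each probe set has 1 signal per array, in intensity units scaled by the authors so that the trimmed mean of every array was 100.03. Differences are DHT minus control on log2(signal + 16), and are relative to the average transcript, since a common scale removes any change in total mRNA. Correlations of log2 signal were 0.973 to 0.978 between arrays of a group and 0.958 to 0.966 across groups. Signals of the hybridisation spikes, RNAs added in fixed amounts, were higher on the DHT arrays (log2 10.14 ± 0.14 against 9.59 ± 0.11, SD, n = 3). Scaling each array to those spikes moved the median difference of all genes to -0.45, and the directions it turns are given with the results. This spike scale is another way to scale the arrays. It follows the hybridisation and gives no amount of mRNA per cell. The ratio of 3' to 5' probe sets, a measure of RNA integrity and labelling, was also higher with DHT, at 1.77 ± 0.07 against 1.37 ± 0.05 for ACTB and 1.06 ± 0.05 against 0.904 ± 0.044 for GAPDH (SD, n = 3; exact permutation p = 0.1 for both, the smallest that 3 arrays against 3 allow). The part of spikes or RNA integrity in the results below was not tested. Of 6 luminal prostate markers tested, KLK3 (log2 difference 2.04) and TMPRSS2 (2.70), both androgen targets, rose, KRT8 (-0.43) and HOXB13 (-0.37) fell, and KRT18 and FOLH1 did not pass. KRT8 and KRT18 were each read by 1 probe set with the suffix _x_at, whose probes can also bind other transcripts. The basal keratins KRT5, KRT14 and KRT15 lay below the limit for dim probe sets. So did the immune markers PTPRC and CD14, while CD3E was dim and lower on every DHT array (means 33.8 and 14.4, -0.73) without passing (limma adjusted p = 0.0634). Among the neuroendocrine markers SYP lay below the limit, and CHGA (-0.27) and ENO2 (-0.31) did not pass.

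Among the 10 genes, DHT raised the signal of FKBP5 at 1 probe set and lowered that of FKBP10 and of 1 FKBP1A probe set. The receptor chaperones themselves, HSP90AA1, HSP90AB1, PTGES3, STIP1, FKBP4 and PPID, had no probe set past the threshold. Of 24 member probe sets bright enough to test, 1 was higher, 2 were lower and 21 did not pass an adjusted p of 0.05 in limma with Benjamini-Hochberg adjustment over all 32768 tested probe sets. Over all tested probe sets 10.3% passed (5.09% higher and 5.25% lower), so the share of members called was close to the background. The median difference was -0.01 for the members and 0.01 for all tested probe sets, and 20 of the 24 members differed by less than 0.3 in either direction. At an unadjusted p under 0.05, 7 member probe sets were higher and 4 were lower, against a background of 23.9% in both directions together. Read at its brightest probe set, 1 of the 10 genes was higher and 1 lower, against a background of 12.9% of 14269 genes. Scaled to the spikes, 0 member probe sets were higher and 18 were lower by limma, and 0 were higher at an unadjusted p under 0.05. On that scale 46.6% of all tested probe sets were called lower and 0.760% higher, so those member calls stand beside a shift of the whole array. Read by gene on that scale, 0 members were higher (0 also at an unadjusted p under 0.05) and 8 lower by limma, against 0.947% and 52.4% of all genes. In a limma fit without an intensity trend, 0 member probe sets were higher (1 at an unadjusted p under 0.05) and 1 was lower, against 2.02% and 1.84% of all. In bulk cultures, fewer expressing cells and less RNA per cell cannot be told apart for any of these genes.

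**Figure D1:**
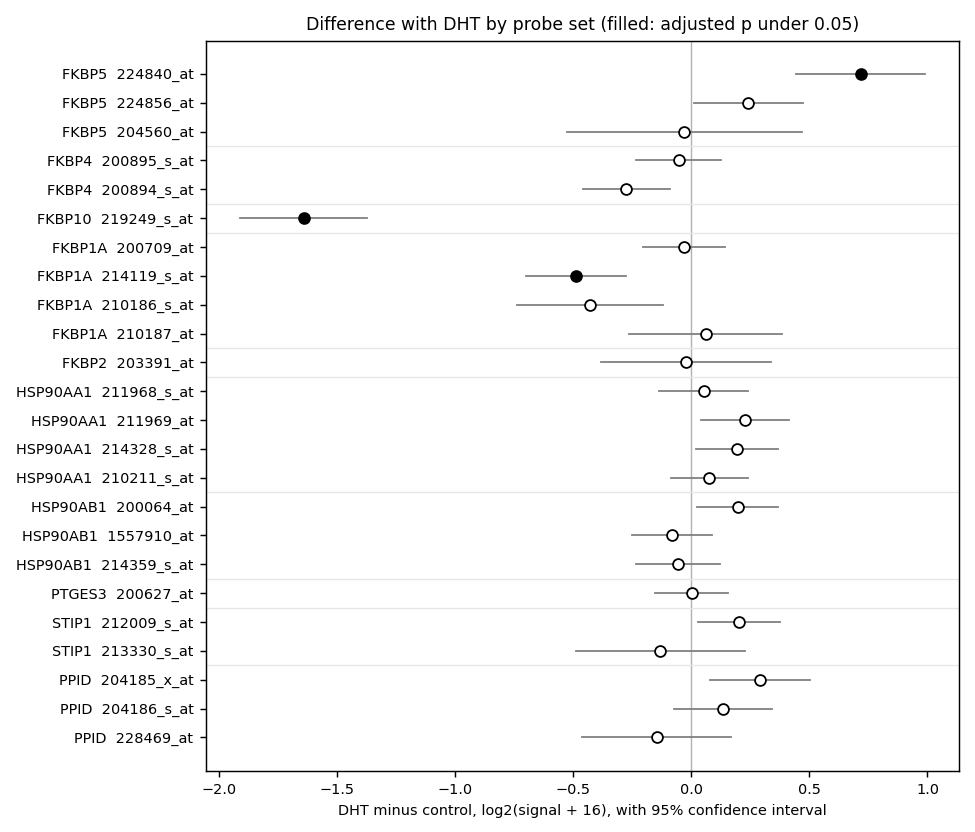
Differences of the 24 tested member probe sets between DHT and control on log2(signal + 16), with 95% confidence intervals from limma and a mark for those past an adjusted p of 0.05. FKBP10 lies far to the left at -1.64 and FKBP5 224840_at to the right at 0.72, while most others lie within 0.3 of 0; on a spike scale FKBP5 224840_at is at 0.20 and the HSP90 probe sets above 0 lie below it.

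FKBP5 competes with FKBP4 for HSP90 and, in glucocorticoid receptor complexes, holds hormone affinity down. Its brightest probe set, 224840_at, read 229, 223 and 212 in the controls and 465, 316 and 358 with DHT. Every DHT array was above every control, and the treated arrays were spread far more widely than the controls (SD 77.0 against 8.53, n = 3). The log2 difference was 0.72 with a 95% confidence interval of 0.44 to 0.99 (limma adjusted p = 0.00409).

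The FKBP5 probe sets gave unlike answers. Probe set 224856_at read 191, 189 and 175 in the controls and 243, 228 and 195 with DHT, also without overlap, but its difference of 0.24 (0.01 to 0.47) had a limma adjusted p of 0.191, and on the spike scale it was -0.27. Probe set 204560_at was dim, at 38.9, 27.2 and 37.7 against 46.8, 34.7 and 21.6, and the groups overlapped around a difference of -0.03 (-0.53 to 0.47). Measured on the same array, the log2 ratio of 224840_at to 224856_at was higher by 0.48 with DHT and that to 204560_at by 0.75, without overlap between groups (exact permutation p = 0.1 for both, 0.156 after adjustment over 14 pairs of probe sets of 1 gene). The call at 224840_at was lost on the spike scale (0.20, limma adjusted p = 0.348) and in a limma fit without an intensity trend (adjusted p = 0.0515), and the mean over the probe sets did not pass either (0.31, adjusted p = 0.149). Leaving out DHT replicate 1, the brightest array, gave 0.57, and leaving out DHT replicate 2, the dimmest, gave 0.84; the call held in both.

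**Figure D2:**
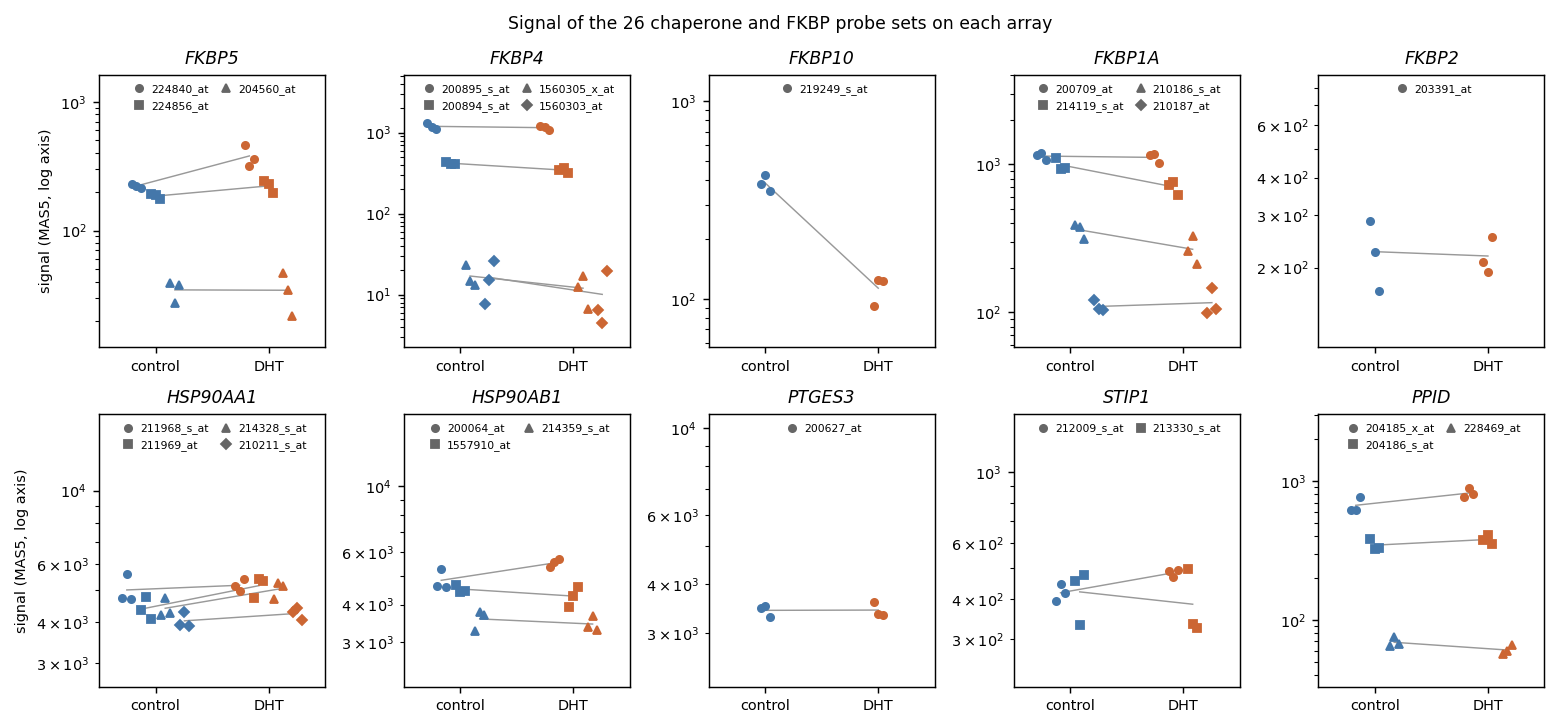
Signal of the member probe sets on each of the 6 arrays, in intensity units on a log axis, with 3 control and 3 DHT arrays side by side for each probe set. The DHT arrays of FKBP10 (91.8 to 124) lie far below the controls (351 to 422), and those of FKBP5 224840_at (316 to 465) above theirs (212 to 229).

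The upstream window of FKBP5 is shown because this is the member with a textbook androgen response, whose known receptor sites lie mainly in introns. RefSeq (assembly GRCh38.p14) gives 2 starts, and the window below holds the 250 bases before 1 of them, on the minus strand at chr6:35688916-35689165.
FKBP5 upstream window: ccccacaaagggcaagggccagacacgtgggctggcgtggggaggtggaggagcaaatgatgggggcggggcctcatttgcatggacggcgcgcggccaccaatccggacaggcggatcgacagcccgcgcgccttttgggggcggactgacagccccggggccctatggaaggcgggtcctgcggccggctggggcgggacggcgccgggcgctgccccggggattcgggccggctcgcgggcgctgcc
Its GC content was 74.8%, against a median of 58% for all windows. The full androgen response element, searched as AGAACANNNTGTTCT on both strands, was in 0 of 17 member windows and in 1 of 35116 windows (0.00285%). Its single arm, searched as AGAACA on both strands, was in 12.4% of all windows and in 1 of the 17, that of HSP90AB1. These letters were thus not in the FKBP5 window; nothing follows from that about the receptor.

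FKBP4, the partner that carries the hormone-bound receptor along microtubules towards the nucleus, had no probe set past the threshold on the deposited scale, and both tested ones were called lower on the spike scale (-0.60 and -0.80, limma adjusted p = 0.00159 and 0.00037). Its brightest probe set, 200895_s_at, read 1309, 1164 and 1119 in the controls and 1204, 1182 and 1071 with DHT. The groups overlapped, and the difference was -0.05 (-0.23 to 0.13; limma adjusted p = 0.760). The second, 200894_s_at, read 436, 409 and 414 against 344, 370 and 320, with every DHT array below every control. Its difference of -0.27 (-0.46 to -0.09) had a limma adjusted p of 0.0617, and of 0.0418 where the lowest 60% of probe sets were left out instead of 40%. The other 2 FKBP4 probe sets, 1560305_x_at and 1560303_at, were below the limit for dim probe sets, with control means of 17.0 and 16.4, and were not tested.

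PPID, the cyclophilin found in the same receptor complexes, was read by 3 probe sets. The brightest, 204185_x_at, gave 623, 614 and 768 in the controls and 767, 884 and 804 with DHT. Control replicate 3 overlapped the DHT arrays. The difference was 0.29 (0.08 to 0.50) with a limma adjusted p of 0.0852, or 0.39 and 0.0287 without control replicate 3, and on the spike scale it was -0.25. The suffix of this probe set marks probes that can also bind other transcripts, and 204186_s_at was used for the gene instead. That one gave 0.13 (-0.08 to 0.34) and 228469_at gave -0.15 (-0.46 to 0.17), and neither passed.

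Within an array, FKBP5 224840_at was set against the probe set read for FKBP4, PPID, HSP90AA1 and HSP90AB1. Each ratio was higher on every treated array than on any control. All share this FKBP5 probe set, and no such ratio was made for the other FKBP5 probe sets, which did not pass. The log2 ratio of FKBP5 224840_at to the brightest FKBP4 probe set was -2.43, -2.30 and -2.31 in the controls and -1.34, -1.85 and -1.54 with DHT, a difference of 0.77 with no overlap. The same ratio was higher by 0.58 against PPID, by 0.67 against HSP90AA1 and by 0.52 against HSP90AB1, each without overlap. A scale factor common to an array cancels in such a ratio, apart from the added 16, so that these differences do not depend on the spikes. Exact permutation p was 0.1 for each of the 6 member pairs compared, and 0.1 after adjustment, the smallest that this design allows. The share of ratios without overlap was not computed over all probe sets, so this has no background. FKBP5 224840_at and FKBP10 219249_s_at did not overlap between groups when taken singly either, so their ratios add little to those results. The ratios compare signals of probe sets, not amounts of protein. HSP90AA1 211968_s_at over HSP90AB1 200064_at went from 0.05 ± 0.03 to -0.10 ± 0.05 (SD, n = 3). That direction belongs to this pair of probe sets only. Differences of the other HSP90AB1 probe sets, -0.08 and -0.06, lay below those of every HSP90AA1 probe set (0.05 to 0.23). No ratio to them was made.

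**Figure D3:**
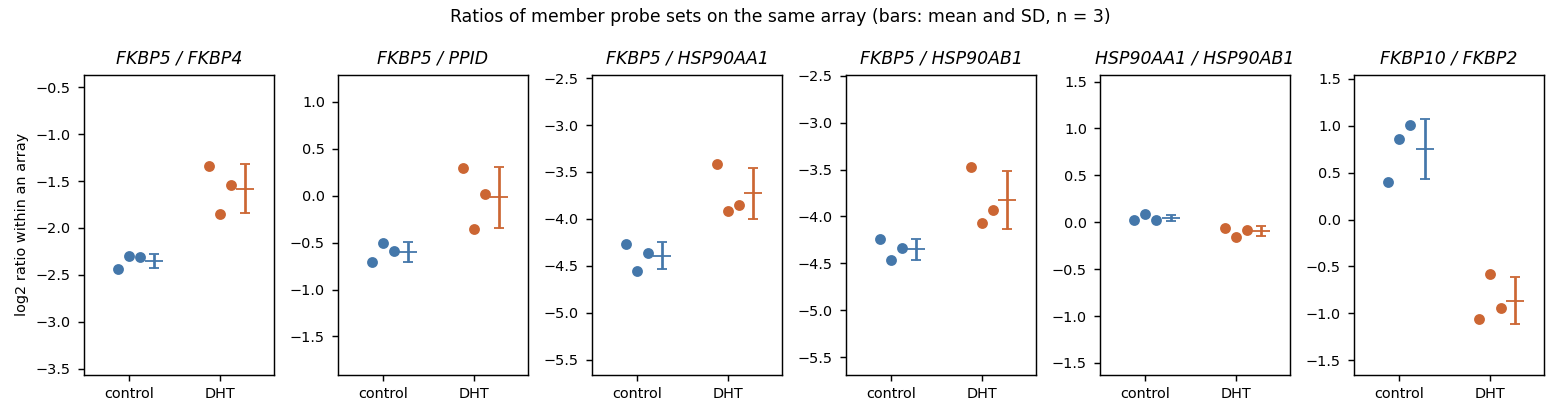
Log2 ratio of 2 members on the same array for the 6 member pairs, 1 point per array, control and DHT side by side. No pair overlaps between groups: the 4 ratios of FKBP5 224840_at are higher with DHT, and FKBP10 over FKBP2 is lower. HSP90AA1 211968_s_at over HSP90AB1 200064_at is lower by only 0.14, and other probe sets of these genes were not set against each other. The share of such ratios over all probe sets was not computed.

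The HSP90 genes were near the top of the intensity range, with control means of 3581 to 4996 over 7 probe sets. HSP90AA1 is the form induced by stress and HSP90AB1 the form made constantly. Of their 7 probe sets, 5 had a difference above 0 on the deposited scale, all 7 lay between -0.08 and 0.23, and 0 passed the limma threshold; on the spike scale all 7 were below 0 and past the threshold, for example at -0.32 for HSP90AA1 211969_at (adjusted p = 0.00909). For HSP90AA1, 211969_at read 4355, 4766 and 4079 in the controls and 4727, 5385 and 5334 with DHT. Control replicate 2 overlapped, and the limma adjusted p was 0.124.

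The other HSP90AA1 probe sets gave 0.05 (211968_s_at), 0.19 (214328_s_at) and 0.08 (210211_s_at), with limma adjusted p of 0.777, 0.162 and 0.599. The brightest HSP90AB1 probe set, 200064_at, read 4636, 5270 and 4584 in the controls and 5336, 5551 and 5688 with DHT. Every DHT array was above every control, and the difference of 0.20 (0.02 to 0.37) had a limma adjusted p of 0.152. Without control replicate 2 it was 0.26 with an adjusted p of 0.0422, and on the spike scale -0.35. The other HSP90AB1 probe sets were at -0.08 (1557910_at) and -0.06 (214359_s_at), on the opposite side of 0. The 2 HSP90 genes are close relatives with many processed copies in the genome, and part of a signal may come from a copy.

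Both genes are known targets of heat shock factor, and matches to its element upstream of them are shown for that reason. The element was searched as GAANNTTCNNGAA on both strands (TTCNNGAANNTTC on the other) in the 250 bases before each RefSeq start (GRCh38.p14). It was in 155 of 35116 windows (0.441%) and in 2 of the 17 member windows, 1 for each HSP90 gene. Capitals mark the match, which begins 88 bases before the start in HSP90AA1 and 165 and 112 bases before it in HSP90AB1. The whole stretches shown, capitals and flanks, lie on the minus strand at chr14:102087111-102087140 for HSP90AA1. Those of HSP90AB1 lie on the plus strand at chr6:44247770-44247799 and chr6:44247823-44247852.
HSP90AA1 site: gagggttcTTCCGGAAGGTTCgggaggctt
HSP90AB1 distal site: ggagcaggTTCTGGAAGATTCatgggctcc
HSP90AB1 proximal site: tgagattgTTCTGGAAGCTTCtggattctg
The single androgen arm in the HSP90AB1 window, read as TGTTCT, overlaps the proximal element and starts 114 bases before the start. A match is a description of letters, not a measured binding site. The windows covered 8 of the 10 members, not FKBP4 and FKBP10.

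PTGES3, the small cochaperone that locks the mature receptor complex, was the flattest of the chaperones. Its probe set 200627_at read 3477, 3516 and 3301 in the controls and 3612, 3366 and 3334 with DHT. The groups overlapped around a difference of 0.00 (-0.15 to 0.16; limma adjusted p = 0.992), which was -0.55 on the spike scale (adjusted p = 0.000734). STIP1 212009_s_at read 395, 445 and 417 against 491, 469 and 492, with every DHT array above every control and little spread among the treated. Its difference was 0.20 (0.03 to 0.37), with a limma adjusted p of 0.141, and -0.33 on the spike scale. The second STIP1 probe set, 213330_s_at, gave -0.13 (-0.49 to 0.23), with groups that overlapped.

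FKBP10 fell further than any other member. Its only probe set, 219249_s_at, read 383, 422 and 351 in the controls and 91.8, 124 and 124 with DHT. No DHT array came near a control, and the control mean was 3.40 times the DHT mean. The log2 difference was -1.64 (-1.91 to -1.37; limma adjusted p = 1.82e-05), and the call held under every one of the 16 alternatives that apply to a probe set, between -1.34 and -2.15 with an adjusted p of at most 0.00597.

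FKBP2, the other member resident in the endoplasmic reticulum, did not pass the test. Its only probe set, 203391_at, read 287, 225 and 167 in the controls and 210, 193 and 253 with DHT, a difference of -0.02 (-0.38 to 0.34) with wide spread in both groups. On the spike scale it was -0.54, with a limma adjusted p of 0.0146. The within-array log2 ratio of FKBP10 to FKBP2 averaged 0.76 ± 0.32 in controls and -0.86 ± 0.25 after DHT (SD, n = 3), lower by 1.62 in log2 units, without overlap (exact permutation p = 0.1).

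The enzymes and chaperones of collagen assembly, with which FKBP10 is known to work, had no gene that was called lower. Of 13 listed, 8 were tested, 2 rose and 0 fell (0 also at an unadjusted p under 0.05), with a median of 0.19 against 0.02 for all genes. Over all genes 6.95% were called higher and 5.91% lower by limma, so 0 lower of 8 was close to the background. PLOD1, which hydroxylates collagen lysines, went from 298 to 401 (0.41, limma adjusted p = 0.0062). P4HB, a disulfide isomerase and subunit of prolyl hydroxylase, went from 4167 to 5260 (0.34, adjusted p = 0.0101). Both turned on the spike scale, to -0.12 and -0.21, and both lost the call when arrays were scaled to equal medians. The mean over the 3 probe sets of P4HB was -0.10 (limma adjusted p = 0.426), on the opposite side of 0. SERPINH1, PLOD2, P4HA3, P3H2 and P3H3 were below the limit for dim probe sets. Of the fibroblast and muscle markers, COL1A1 fell from 198 to 132 (-0.54, limma adjusted p = 0.0186), the other 4 tested did not pass, and DES and LUM lay below the limit. The summed signal of the 7 markers was 422 to 445 in the controls and 345 to 378 with DHT, and COL1A1 changed most among them. Means of ACTA2, DES and LUM were higher with DHT (107, 14.4 and 16.6 against 99.4, 12.9 and 13.4). Those of COL1A2, COL3A1 and DCN were lower (22.4, 22.7 and 46.7 against 24.9, 30.1 and 51.4). The part of these markers in the FKBP10 result was not tested.

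FKBP1A was read by 4 probe sets that split into those near 0 and those lower. The brightest, 200709_at, read 1159, 1191 and 1067 in the controls and 1157, 1167 and 1022 with DHT, with overlap and a difference of -0.03 (-0.21 to 0.14), or -0.57 on the spike scale (limma adjusted p = 0.00186). The next, 214119_s_at, read 1104, 932 and 946 against 729, 765 and 621, every DHT array below every control. Its difference of -0.49 (-0.70 to -0.28) passed with a limma adjusted p of 0.00828, but not in a fit without an intensity trend (adjusted p = 0.0855).

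Another, 210186_s_at, read 391, 378 and 314 against 261, 330 and 211. DHT replicate 2 overlapped control replicate 3, and the difference of -0.43 (-0.74 to -0.12) had a limma adjusted p of 0.0824; without DHT replicate 2 it was -0.58 with an adjusted p of 0.0229. The dimmest, 210187_at, was at 0.06 (-0.26 to 0.38) on the deposited scale and -0.42 on the spike scale. The log2 ratio of 200709_at to 214119_s_at was higher by 0.46 with DHT, and that to 210186_s_at by 0.40, both without overlap (exact permutation p = 0.1, 0.156 adjusted over 14 pairs), whereas that to 210187_at overlapped (-0.09, exact permutation p = 0.7). Which transcript forms these probe sets read was not analysed here.

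Across all members with several tested probe sets, 9 of 14 within-gene pairs did not overlap between groups. The share of such pairs over all genes was not computed, and several pairs have a probe set in common, so this count has no background. Of the 24 probe sets taken singly, 4 had every DHT array above every control and 3 had every one below. The background for single probe sets was 28.7% of all tested in both directions (15.0% above and 13.8% below).

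The wider network was described through 8 lists of related genes, chosen by name. Of 131 genes, 111 were tested, 10 rose and 10 fell, which is 18.0%, with a background of 12.9% over all genes (6.95% higher and 5.91% lower) and medians of -0.01 and 0.02. The other FKBP genes were mostly near 0: of 9 tested, 0 rose (1 was higher at an unadjusted p under 0.05) and 1 fell. That gene was FKBP8, a mitochondrial member that binds BCL2, at 333, 441 and 508 against 295, 295 and 236 (-0.59, limma adjusted p = 0.0184). The call was lost without control replicate 2, control replicate 3 or DHT replicate 3, with an adjusted p of up to 0.0733.

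Of 17 cyclophilins and parvulins tested, 3 fell and 0 rose by limma (3 were higher at an unadjusted p under 0.05), with a median of -0.03. The background over all genes was 5.91% lower and 6.95% higher. The parvulin PIN4 went from 442 ± 24.9 to 289 ± 32.6 (SD, n = 3; -0.59, limma adjusted p = 0.0023). RANBP2, a nuclear pore protein with a cyclophilin domain and close copies in the genome, was at -0.41 (adjusted p = 0.00656), and PPIL4 at -0.46 (adjusted p = 0.0449). PPIL4 did not pass once any 1 array was left out (adjusted p up to 0.174), and PIN4 and RANBP2 did not pass as means over their probe sets.

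Of 28 other HSP90 proteins and cochaperones, 3 rose and 1 fell, against 6.95% and 5.91% of all genes, with a median of -0.01. DNAJC7, which like STIP1 binds HSP70 and HSP90 through tetratricopeptide repeats, read 496, 464 and 455 in the controls and 317, 304 and 310 with DHT (-0.58, limma adjusted p = 0.000751). The treated arrays were tightly grouped below the controls, although the mean over its probe sets did not pass (adjusted p = 0.346). FNIP2 (0.35), CDC37L1 (0.36) and CHORDC1 (0.27) rose with limma adjusted p of 0.035, 0.0427 and 0.0476. All 3 turned below 0 on the spike scale. CDC37L1 was at 0.13 as a mean over its probe sets (adjusted p = 0.45) and lost its call without any 1 array, and FNIP2 and CHORDC1 without 5 of the 6, FNIP2 passing only without DHT replicate 2 and CHORDC1 only without control replicate 2.

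Of 21 HSP70, HSP40 and BAG genes tested, 4 fell and 0 rose (2 were higher at an unadjusted p under 0.05), with a median of -0.10. Over all genes 5.91% were called lower and 6.95% higher by limma. DNAJB2, an HSP40 that feeds clients to HSP70, read 227, 221 and 255 in the controls and 148, 132 and 130 with DHT. The groups stood well apart (-0.71, limma adjusted p = 0.00118), and the call held under all 17 alternatives. HSPA4, a nucleotide exchange factor for HSP70, was at -0.41 (adjusted p = 0.0106), BAG6 at -0.36 (0.0127) and DNAJA4 at -0.42 (0.047). BAG6 lost its call without DHT replicate 3 (adjusted p = 0.0539), and DNAJA4 without any 1 array other than DHT replicate 1 (adjusted p up to 0.14). As means over their probe sets, HSPA4 was at -0.16 (adjusted p = 0.251) and DNAJA4 at -0.11 (adjusted p = 0.66), and neither passed.

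Heat shock factors and small or mitochondrial heat shock proteins had a median of -0.03 over 9 tested genes. HSPD1, the mitochondrial chaperonin, rose by 0.30 (limma adjusted p = 0.0335), but it was -0.25 on the spike scale and passed without 1 array only when that array was control replicate 2. The mean over its 4 tested probe sets was 0.034 (limma adjusted p = 0.822), and quantile normalisation gave 0.10 (adjusted p = 0.166). None of 5 steroid receptor genes tested passed in limma, and 0 had an unadjusted p under 0.05. The smallest p was that of NR3C2, the mineralocorticoid receptor, at 0.33 (adjusted p = 0.228; -0.14 on the spike scale).

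The partners of FKBP1A and of the drugs that bind it had 4 genes that rose and 1 that fell of 14 tested, with a median of 0.12. Shares over all genes were 6.95% higher and 5.91% lower. PPP3R1, the regulatory subunit of calcineurin, read 123, 131 and 115 in the controls and 77.8, 69.7 and 57.9 with DHT. It was lower on every treated array (-0.72, limma adjusted p = 0.00538) and passed under all 17 alternatives. The catalytic subunits PPP3CA (0.40, adjusted p = 0.0169) and PPP3CB (0.36, adjusted p = 0.0279) moved the other way on the deposited scale and were -0.15 and -0.17 on the spike scale. PPP3CA lost its call without control replicate 1 or 3 or DHT replicate 2 or 3, and PPP3CB without control replicate 3 or DHT replicate 1 or 2 and as the mean over its probe sets (0.20, adjusted p = 0.163).

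MTOR, the kinase that rapamycin inhibits together with FKBP1A, read 66.9, 75.4 and 60.7 against 109, 117 and 105. All DHT arrays were above the controls (0.60, limma adjusted p = 0.012), and the call was lost on the spike scale and, at an adjusted p of 0.0508, without DHT replicate 2. In a limma fit without an intensity trend, 1 gene of the 8 lists was higher (MTOR) and 4 were lower (PIN4, DNAJC7, DNAJB2 and PPP3R1), against 2.69% and 2.01% of all genes.

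**Figure D4:**
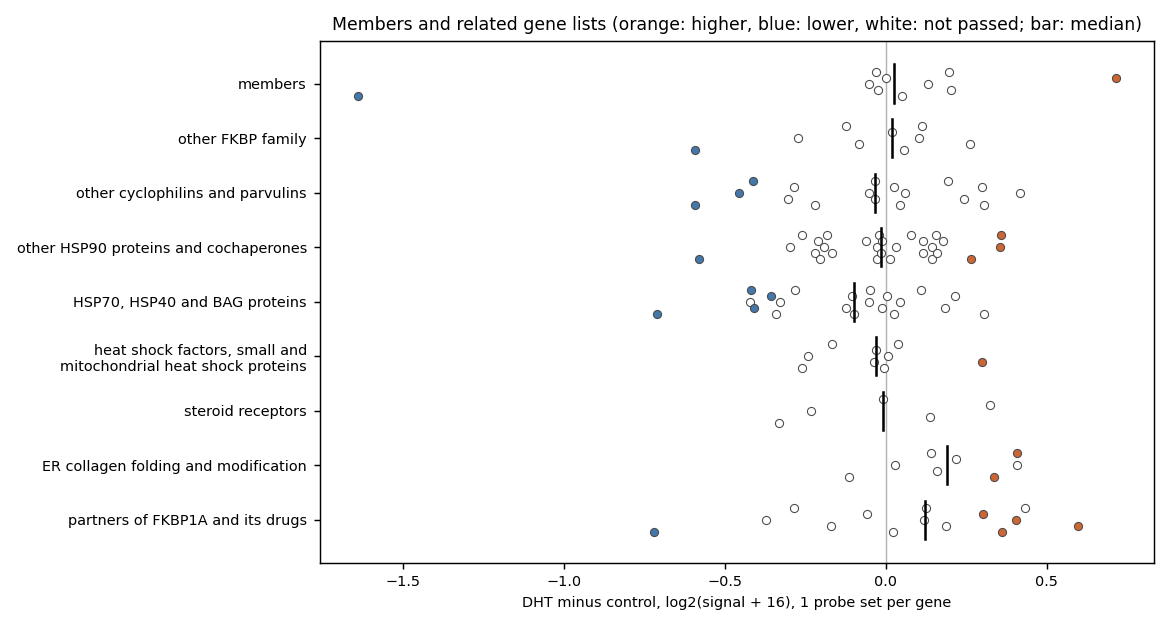
Log2 difference between DHT and control for each tested gene of the members and of the 8 related lists, 1 point per gene, with the median of each list. List medians lie between -0.10 and 0.19, close to the 0.02 of all genes, and FKBP10 is the lowest point; on the spike scale the median of all genes is -0.45 and the genes of these lists named as rising, other than FKBP5 and MTOR, turn below 0.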

How the data were processed

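Total RNA of 6 LNCaP cultures was hybridised to 1-colour Affymetrix arrays. The values the authors deposited are linear signal intensities, which MAS5 produced per the submitters' processing notes (version not stated there). MAS5 subtracts a mismatch background, so dim probe sets are noisy. The arrays had been scaled before deposition, and nothing further was normalised. With 62 array controls left out, and the dimmest 40% of probe sets (mean signal under 17.3), 32768 of 54675 were tested on log2(signal + 16), which understates changes of dim genes, with limma 3.58.1 (lmFit, eBayes with trend; R 4.3.3), DHT against control without a block. A gene was read from its brightest tested probe set naming it alone, _x_at probe sets last. Ratios of 2 probe sets on an array were tested by two-sided exact permutation. The number of arrays limits the precision. The code was tested on simulated data. Upstream sequences are RefSeq's (GRCh38.p14), matched by symbol with Python 3.11.15.

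All member probe sets are named, and of each related list the genes past the threshold, at most 4 by smallest adjusted p, or the gene with the smallest p where none passed. Members and lists were chosen with earlier results of these data known. Same-numbered control and DHT arrays did not deviate together, so the numbers were not used as pairs. Protein sequences were not compared here.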

Additional observations from a re-analysis of the deposited data

How the results depend on the processing

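Of 781 single values recomputed over 17 alternatives, 634 kept their sign and side of the threshold. With the sign kept, 94 lost and 14 gained a call. Another 39 changed sign, and some of these also lost or gained a call. Spike scaling turned FKBP5 224856_at to -0.27, FKBP1A 210187_at to -0.42, HSP90AA1 211968_s_at, 211969_at, 214328_s_at and 210211_s_at to -0.50, -0.32, -0.36 and -0.47, HSP90AB1 200064_at to -0.35, PTGES3 to -0.55, STIP1 212009_s_at to -0.33, PPID 204185_x_at and 204186_s_at to -0.25 and -0.40, and FNIP2, CDC37L1, CHORDC1, HSPD1, NR3C2, PLOD1, P4HB, PPP3CA and PPP3CB to -0.17, -0.16, -0.28, -0.25, -0.14, -0.12, -0.21, -0.15 and -0.17. It left 0 member probe sets higher and 18 lower, 0 member genes higher and 8 lower, and 0 list genes higher and 67 lower by limma (0 higher at an unadjusted p under 0.05 in each), beside 46.6% of all probe sets and 52.4% of all genes called lower. Quantile normalisation turned HSP90AA1 211968_s_at to -0.052 and 210211_s_at to -0.0065 and PTGES3 to -0.092, and equal array medians turned 211968_s_at to -0.012 and PTGES3 to -0.062. Averaging the probe sets of a gene turned PPID to -0.0074 and P4HB to -0.10, and left 0 member genes higher by limma (1 at an unadjusted p under 0.05). Without an intensity trend 0 member probe sets were higher (1 at an unadjusted p under 0.05), 1 was lower, and 1 list gene was higher and 4 lower. List genes higher numbered 5 with no filter on dim probe sets and 2 with equal medians. Leaving out 1 array gave 1 to 2 member probe sets higher, 1 to 2 member genes higher, and 3 to 8 list genes higher and 6 to 11 lower; the fewest list genes higher came without control replicate 3 or DHT replicate 2, and the fewest lower without DHT replicate 3. It moved values near 0 across it: FKBP5 204560_at from -0.20 to 0.17, FKBP4 200895_s_at from -0.10 to 0.013, FKBP2 from -0.21 to 0.15, FKBP1A 200709_at from -0.076 to 0.030 and 210187_at from -0.094 to 0.16, and PTGES3 from -0.034 to 0.023. The cause was not tested for any of these. With the replicate number as a block, 1698 genes passed against 1834. Among member probe sets FKBP1A 210186_s_at then gained a call (limma adjusted p = 0.0264, -0.43). Deviations of same-numbered arrays correlated at -0.03 to 0.00, and control 1 correlated best with DHT 2 (0.04). These correlations gave no reason to pair the arrays, but cannot show whether same-numbered cultures were handled together. With 3 arrays a group, the median standard error of a member difference was 0.09.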

Other observations

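The second STIP1 probe set, 213330_s_at, separated the arrays without regard to group, and was singled out after its values were seen. It read 456, 332 and 477 in the controls and 496, 335 and 326 with DHT, so that 3 arrays lay between 326 and 335 and 3 between 456 and 496. The first STIP1 probe set, 212009_s_at, did not share that split, at 395, 445 and 417 against 491, 469 and 492.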
